A study of Drosophila melanogaster with 66 samples.

Results

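Odorant-binding protein (Obp) genes of Drosophila melanogaster were followed in whole flies across both sexes, transgenic founders, 4 classes of their F1 offspring, and 2 later generations that carried no transgene. The members were all genes whose symbol in the array annotation begins with Obp and a number, taken from probe sets assigned to 1 gene, with the probe set of highest mean kept for each gene. This gave 47 genes of 11982 named genes on the array. Of these, 26 lie on chromosome arm 2R, 11 on 3R, 6 on X, 2 on 2L and 2 on 3L in the Release 6 plus ISO1 MT assembly. Several are next to one another, such as Obp56a to Obp56f, Obp57c, Obp57b and Obp57a, Obp83cd, Obp83ef and Obp83g, and Obp19a to Obp19d. Levels are the deposited GCRMA values on a log2 scale, which start at a floor of 2.23, so a difference of 1 is a 2-fold difference and a value at the floor carries no order.

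The 66 arrays fall into 20 groups of 3 or 4, 10 for each sex, all from total RNA of whole flies, 80 to 90 flies to an extract. Founders (F0 test) carried rpr/cyo on the second chromosome and dilp3/ser on the third: the UAS-rpr and ilp3-GAL4 constructs that together ablate insulin-producing cells, each over a marked balancer. Founder males crossed to w1118 females gave F1 flies with 1 copy of each chromosome, called here F1 rpr; dilp3 (both constructs), F1 cyo; dilp3, F1 rpr; ser and F1 cyo; ser. F2 test flies were construct-free and balancer-free w1118 offspring of F1 rpr; ser males and control females, and F3 test flies were offspring of F2 test males and F2 control females. The references were w1118 controls of the F1, F2 and F3 generations, where the F1 control arrays serve both the founders and all 4 F1 classes, per the labels. The design text of the series instead names w1118 flies as an F0 control and says that control offspring of the F1 were not profiled, so the generation of these reference flies is not settled. All groups share the w1118 background, and the promoter of ilp3-GAL4 restricts the ablation to insulin-producing cells of flies that hold both constructs.

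Some arrays stood apart, and several results that rest on them are given with and without them. The F2 female arrays numbered 2 had a mean of 10 ovary (chorion and vitelline membrane) markers of 5.70 in test and 2.74 in control flies, against 7.34 to 12.84 on the other 30 female arrays. Of these 10 markers, 2 in the test array and 5 in the control array lay near the floor. The F2 control male array 3 had an ovary marker mean of 10.26, against 2.5 to 2.91 on the other male arrays. The most alike arrays were F3 test female 3 with F2 test female 3, and F3 control female 3 with F2 control female 3, at correlations of 0.9993 in both pairs, although no 2 arrays held identical values. Nothing in the labels says how independent cultures map to arrays, so p-values measure the spread between these arrays.

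Odorant-binding proteins are small secreted proteins that carry hydrophobic ligands through the fluid around the dendrites of smell and taste neurons. Support cells of the sensilla make many of them, where they reach odorant and gustatory receptors, but the family is also used elsewhere: in the male reproductive tract as seminal proteins, in fat body, and in glia. A whole-fly extract mixes all of these sources. Fewer cells of a type and less RNA per cell therefore cannot be told apart in any value below.

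Testing within a sex required a level above that sex's 40th percentile (2.63 in males, 2.51 in females) on 3 or more arrays. By this filter 29 members were tested in both sexes, 7 only in females, 1 (Obp56i) only in males, and 10 in neither. The 10 that passed in neither sex were Obp46a, Obp47a, Obp47b, Obp50a, Obp50d, Obp50e, Obp56c, Obp58b, Obp59a and Obp93a. Obp59a, which is required for humidity sensing, had a median at the floor in both sexes and reached 2.91 on its highest female array. The antennal list gives scale to this: 14 markers of antenna and olfactory neurons averaged 3.37 to 3.73 on male arrays and 2.88 to 3.71 on female arrays, with 7 to 9 and 4 to 10 of them near the floor. Many of these listed transcripts were thus near the floor of a whole-fly array, while other antennal genes, such as Obp83b and Obp69a below, were not.

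**Figure D1:**
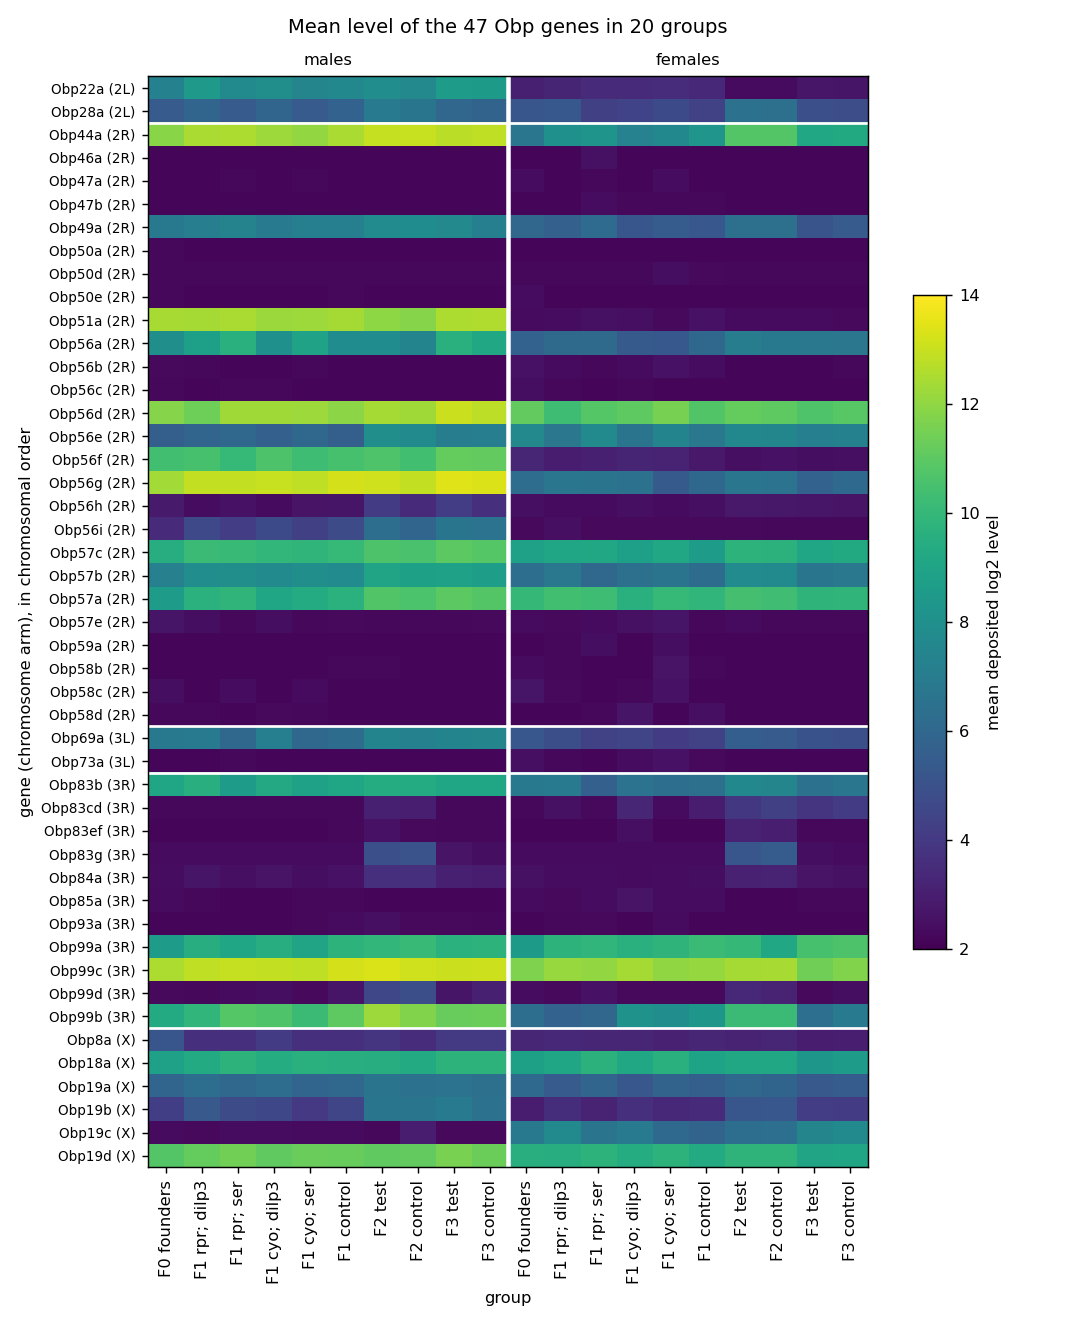
Mean deposited log2 level of each Obp gene (rows) in each group (columns; males left, females right), with genes ordered by chromosome position and the colour giving the level. Obp51a and Obp56f are bright (high) in every male group and at or near the floor in every female group, and 10 genes stay near the floor throughout.

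Among the comparisons, sex gave the largest differences. Over the mean of 10 male and female group pairs, 29 of the 37 tested members passed limma's moderated test (Benjamini-Hochberg adjusted p under 0.05), 23 higher in males and 6 higher in females. Across all 13281 tested entries 80.2% passed, 36.2% higher in males and 44% higher in females. The median change was 0.71 over the members and -0.07 over all entries, as male minus female. A male mean above the female mean in 10 of 10 pairs was seen for 19 of the 37 members, where 29.6% of all entries had it. Every male array lay above every female array in 10 of 10 pairs for 5 members, where 11.5% of all entries did: Obp51a, Obp56f, Obp56g, Obp22a and Obp56i.

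Those 5 genes encode proteins found in seminal fluid. Obp51a (arm 2R) had a lowest, median and highest level of 11.07, 12.39 and 12.86 on the 34 male arrays, against 2.23, 2.37 and 2.99 on the 32 female arrays. The ranges do not touch and the female values lie near the floor, where lower levels are not resolved; the fitted difference was 9.88 ± 0.06 (SE; limma adjusted p = 4.9e-61). In the F1 control pair alone Obp51a had 12.05, 12.44 and 12.65 in males, against 2.39, 2.99 and 2.37 in females. Over the 10 pairs its difference ran from 9.44 to 10.28.

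Obp56f (arm 2R) had a lowest, median and highest level of 9.26, 10.58 and 11.35 in males, against 2.35, 2.80 and 3.76 in females, a difference of 7.69 ± 0.12 (limma adjusted p = 1.8e-45). Obp22a (arm 2L) had 6.41, 8.06 and 8.84 in males, against 2.23, 3.03 and 3.80 in females, a difference of 4.87 ± 0.12 (limma adjusted p = 1.1e-35). Obp56i (arm 2R) was the weakest of the 5 and varied most among males, at 2.57, 5.36 and 6.94, against 2.23, 2.29 and 2.88 in females (2.81 ± 0.15; limma adjusted p = 7.6e-22). In none of the 10 group pairs did a male array of these 3 genes fall to the level of a female array of its pair, although over all arrays the lowest Obp56i male value lies below the highest female one.

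Obp56g (arm 2R), a seminal protein of the ejaculatory bulb needed to form the mating plug and also made in taste organs, differed from the others in having a clear female level. It had 12.06, 13.14 and 13.62 in males, against 4.47, 6.33 and 7.71 in females. The difference of 6.74 ± 0.13 is 107-fold (limma adjusted p = 1.2e-40) and ran from 6.02 to 7.66 over the pairs. Markers of the male tract moved the same way: 5 ejaculatory duct and bulb markers averaged 11.11 to 13.16 in males and 4.44 to 6.12 in females, and 11 accessory gland markers averaged 9.83 to 11.86 in males and 2.57 to 3.13 in females. Their part in the Obp differences was not tested.

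A further pair of genes of known seminal proteins did not share this pattern. Obp8a (arm X) was higher in males by only 0.71 ± 0.10 (limma adjusted p = 2.8e-08), at 2.70, 3.78 and 6.18 in males, against 2.79, 3.17 and 3.69 in females. Obp56e (arm 2R) was lower in males by 0.77 ± 0.18 (limma adjusted p = 1.7e-04): its lowest, median and highest levels were 5.19, 6.42 and 9.58 in males, against 6.22, 7.27 and 8.33 in females. The male mean of Obp56e was nevertheless above the female mean in 2 of the 10 pairs, so the direction was not uniform.

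Obp44a and Obp99b were also higher in males, with arrays that overlapped between the sexes. Obp44a, made in glia, had 11.67, 12.59 and 13.43 in males, against 5.44, 9.31 and 13.01 in females, a difference of 3.94 ± 0.28 or 15.3-fold (limma adjusted p = 1.4e-17). Obp99b, whose male-biased expression in fat body of the head is set by the sex determination pathway, had 8.64, 11.11 and 13.30 in males, against 3.70, 7.35 and 13.16 in females (3.24 ± 0.33; limma adjusted p = 1.5e-12). The highest female values of both genes came from the F2 arrays numbered 2, and both genes still passed without those arrays. Glia markers (5) averaged 6.36 to 8.67 in males and 5.61 to 8.72 in females, with a median of 8.27 in males and 6.70 in females. All 5 were higher in males by limma, at a median change of 1.32. Eye markers moved with them: 6 of 6 were higher in males, at a median change of 1.59, and the median over arrays of their mean was 9.45 in males and 7.64 in females. Their part in the values of the glial, antennal and taste members was not tested.

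Antennal members followed. Obp83b, a protein of the sensilla that detect pheromones and other odours, had 8.21, 9.14 and 9.67 in males, against 4.20, 6.62 and 9.39 in females, a difference of 2.39 ± 0.18 (limma adjusted p = 5.3e-17). Obp69a, an antennal protein whose level responds to social context, had 5.48, 7.19 and 7.80 in males, against 3.53, 4.95 and 7.17 in females (2.03 ± 0.15; limma adjusted p = 3.9e-17). Obp19d, made in both smell and taste organs, differed by 1.72 ± 0.19. Obp49a, which carries bitter compounds to sweet taste neurons, differed by 1.66 ± 0.25, and Obp28a, an abundant antennal protein, by 0.83 ± 0.22, all 3 higher in males. The remaining male-higher members were Obp56a (2.36), Obp19b (1.58), Obp57b (1.47), Obp56d (1.36), Obp57c (1.14), Obp99c (0.97), Obp19a (0.58), Obp56h (0.55), Obp18a (0.42) and Obp84a (0.25).

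Obp19c (arm X) was the one member with a large difference toward females. It had 2.23, 2.33 and 4.90 in males, against 2.29, 7.43 and 8.58 in females, a difference of -4.33 ± 0.35 (limma adjusted p = 6.8e-16). Female values were higher in 10 of 10 pairs, and all female arrays lay above all male arrays in 9 of the 10. The male value of 4.90 came from F2 control male 3, the array with ovary markers at 10.26, and every other male array of Obp19c was at 2.41 or lower. Without that array the difference was -4.41, and without the F2 arrays numbered 2 it was -4.82.

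Among females, Obp19c and the ovary markers were low on the same arrays. The F2 arrays numbered 2 had Obp19c at 2.35 in test and 2.29 in control females, beside ovary marker means of 5.70 and 2.74. Of the F1 arrays, control female 2 had Obp19c at 2.98 with markers at 9.23, rpr; ser female 2 had 3.64 with 7.34, and cyo; ser female 2 had 4.75 with 7.93. The other 27 female arrays had Obp19c between 5.46 and 8.58 and ovary marker means between 10.09 and 12.84. The part of ovary RNA in this difference was not tested. On the X chromosome the neighbours Obp19a, Obp19b and Obp19d were higher in males, so the 4 adjacent genes did not move as a unit.

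The other female-higher members differed by under 1 log2 unit. Obp83cd had 2.23, 2.26 and 4.99 in males, against 2.24, 2.92 and 6.31 in females, a difference of -0.77 ± 0.20 (limma adjusted p = 6.7e-04). Obp99a, found in the fat body among other tissues, had 8.30, 9.59 and 10.31 in males, against 7.37, 10.02 and 10.90 in females (-0.30 ± 0.11; limma adjusted p = 0.0113). Obp85a (-0.09 ± 0.04; limma adjusted p = 0.0189) and Obp56b (-0.11 ± 0.05; limma adjusted p = 0.0279) had medians at the floor in both sexes, with highest values of 2.45 and 2.40 in males and 2.84 and 3.30 in females. Obp57a did not pass, at 7.47, 10.18 and 11.22 in males, against 9.04, 10.04 and 11.30 in females (-0.08 ± 0.17; limma adjusted p = 0.639), whereas its neighbours Obp57b and Obp57c were higher in males. The adjacent genes Obp56a to Obp56f likewise split: Obp56a, Obp56d and Obp56f were higher in males, Obp56b and Obp56e higher in females, and Obp56c was not tested.

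Within the F1 control alone, 15 of 37 members passed (14 higher in males, 1 higher in females), where 52% of all entries did (21.3% higher in males, 30.7% higher in females). Without control female 3 the count was 9.

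**Figure D2:**
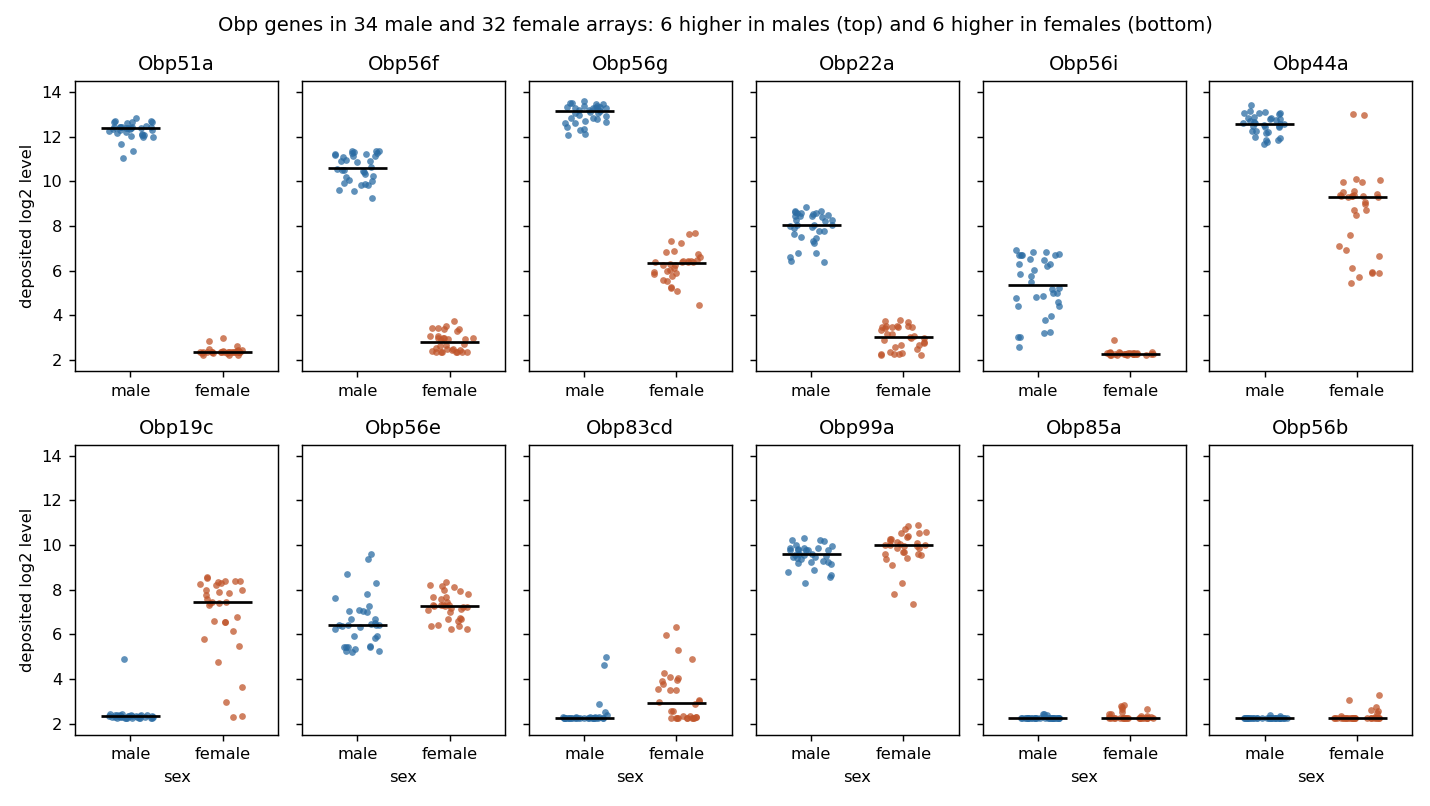
Deposited log2 level on every array (1 point per array; males left, females right) for the 6 male-higher and 6 female-higher Obp genes of smallest p. Male and female points are far apart for Obp51a, Obp56f and Obp56g, while for Obp19c F2 control male 3, at 4.90, lies above the other males and the F2 female arrays numbered 2, at 2.35 and 2.29, lie among the male points. The points differ little for Obp85a and Obp56b, which sit at the floor.

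The founders carry both constructs and both balancers, and were set against the F1 control. In males 3 of 30 tested members passed, where 3.43% of all entries did: Obp99a and Obp18a fell (2.21% of entries) and Obp8a rose (1.22% of entries). The median change was -0.17 over the members and -0.03 over all entries, as founder minus control. Every founder male array lay below every control array for 8 of the 30 members, where 8.72% of entries did, and above for 2, where 7.15% did.

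Obp99a (arm 3R) had 8.30, 8.89 and 8.58 in founder males (mean 8.59 ± 0.29), against 9.53, 9.54 and 10.21 in F1 control males (mean 9.76 ± 0.39; SD, n = 3 each). The groups did not overlap. In the fit with the labelled batch as a term Obp99a fell by 1.20 ± 0.21 (SE) in founder males, 2.30-fold (95% interval of the change -1.63 to -0.78; limma adjusted p = 0.00102). It passed in 6 of 6 fits that left out 1 array of these groups, at -1.37 to -0.96, but not in a fit of the F0 and F1 arrays only (-1.18, adjusted p = 0.0676) or of the compared groups only (adjusted p = 0.197). Fat body markers (8) averaged 5.37 to 5.91 in founder males and 6.10 to 6.74 in control males, also with no overlap. NLaz, 1 of the 8, fell by 0.95 (limma adjusted p = 0.0088), and was also lower in F1 rpr; ser males (-0.94, limma adjusted p = 0.0257). Their part in the Obp99a value was not tested.

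The F1 males show where Obp99a lay with fewer of these chromosomes, with the same F1 control arrays as reference. It had 9.57, 9.44 and 9.37 in F1 rpr; dilp3 males and 9.48, 9.23 and 9.76 in F1 cyo; dilp3 males. Where the third chromosome was the ser balancer, it had 8.78, 9.19 and 9.30 in F1 rpr; ser males and 9.24, 8.66 and 9.14 in F1 cyo; ser males. Neither ser class passed against the control (rpr; ser -0.67, limma adjusted p = 0.199; cyo; ser -0.78, limma adjusted p = 0.118). With the replicate number as a block the cyo; ser value was -0.79 with adjusted p = 0.0232.

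Obp8a, a seminal fluid protein gene on X, had 4.83, 6.18 and 4.59 in founder males (5.20 ± 0.86), against 3.76, 3.45 and 3.61 in F1 control males (3.60 ± 0.16). All founder values were above all control values, and Obp8a rose by 1.70 ± 0.42 or 3.24-fold (limma adjusted p = 0.0212). It passed in 3 of 6 fits with 1 array left out, and without founder male 2, which had the highest value, the adjusted p was 0.109. In the 4 classes of F1 males Obp8a lay between 3.41 and 4.77. The ejaculatory duct and bulb markers averaged 11.11 to 12.66 in founder males and 12.63 to 12.72 in control males, and accessory gland markers 10.54 to 11.50 in founder males and 10.76 to 11.54 in control males. Of the 5 duct and bulb markers, EbpII (-2.04, limma adjusted p = 0.0137) and Ebp (-2.13, limma adjusted p = 0.0188) fell in founder males and Dup99B rose (1.31, limma adjusted p = 0.03), and their part in the values of Obp8a and Obp56g was not tested.

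Obp18a, also on X, had 9.13, 8.49 and 9.03 in founder males (8.88 ± 0.34), against 9.71, 9.66 and 9.34 in control males (9.57 ± 0.20). It fell by 0.55 ± 0.15, 1.47-fold (limma adjusted p = 0.0405), the smallest of the 3 changes. It passed in 2 of 6 fits with 1 array left out, with adjusted p = 0.193 without F1 control male 1. Batch 1 and batch 3 each held 1 founder and 1 control male array. Within batch 1 the founder and the control array had 8.30 and 9.53 for Obp99a, 4.83 and 3.76 for Obp8a, and 9.13 and 9.71 for Obp18a. Within batch 3 they had 8.58 and 9.54, 4.59 and 3.45, and 9.03 and 9.66 in the same order, although groups that do not overlap fix the direction within any batch. The count of members called was 1 without F1 control male 2 or without founder male 2, and 4 without founder male 1, which added Obp57e. Without the F2 arrays numbered 2 it was 3, where 3.92% of entries passed: Obp8a, Obp99a and Obp99c, so that Obp18a did not pass.

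Obp51a, Obp56f, Obp56g, Obp22a and Obp56i did not pass in founder males. Obp51a had 12.39, 12.45 and 12.39 in founder males, against 12.05, 12.44 and 12.65 in control males (change 0.05, 95% interval -0.45 to 0.54). Obp56g had 12.78, 12.11 and 12.06 in founder males, against 13.30, 13.28 and 13.06 in control males, a non-overlapping difference of -0.82 ± 0.30 that did not pass (limma adjusted p = 0.156). Obp99c, at -0.59 ± 0.19, and Obp99b, at -1.54 ± 0.61, also had all founder arrays below all control arrays without passing (limma adjusted p = 0.0941 and 0.200). Obp99c did pass without the F2 arrays numbered 2.

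In founder females 0 of 36 members passed limma's test, where 0.828% of all entries did, and 2 members had an unadjusted p under 0.05, where 9% of entries did. Obp99a again had the smallest p: 8.32, 7.80 and 9.42 in founder females (8.52 ± 0.83), against 9.95, 9.98 and 10.58 in F1 control females (10.17 ± 0.36). All founder values were below all control values, at a change of -1.40 ± 0.40 (limma adjusted p = 0.146). With the replicate number as a block, which pairs these arrays, it passed at -1.75 (adjusted p = 0.0433), as 3.26% of all entries did, and without the F2 arrays numbered 2 it passed at -1.70 (adjusted p = 0.0025). In all it passed in 3 of 11 alternative fits. It passed in 0 of 6 fits that left out 1 array of these groups (limma adjusted p 0.0714 to 0.471). Batch 2 held 2 founder females, at 8.32 and 9.42, and 1 control female, at 10.58. Fat body markers averaged 8.79 to 9.78 in founder females and 9.93 to 10.12 in control females, with Lsp2 of that list at -3.42 (limma adjusted p = 0.0486), and their part was not tested.

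Whether the founder change differed between the sexes was tested as an interaction, and 0 of 37 members passed limma's test, where 0.12% of all entries did, and 1 member had an unadjusted p under 0.05, where 4.96% of entries did. Obp8a, with a change of 1.70 in males and -0.03 in females, had an interaction of 1.67 (limma adjusted p = 0.272). Obp18a changed by -0.34 in females without passing.

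**Figure D3:**
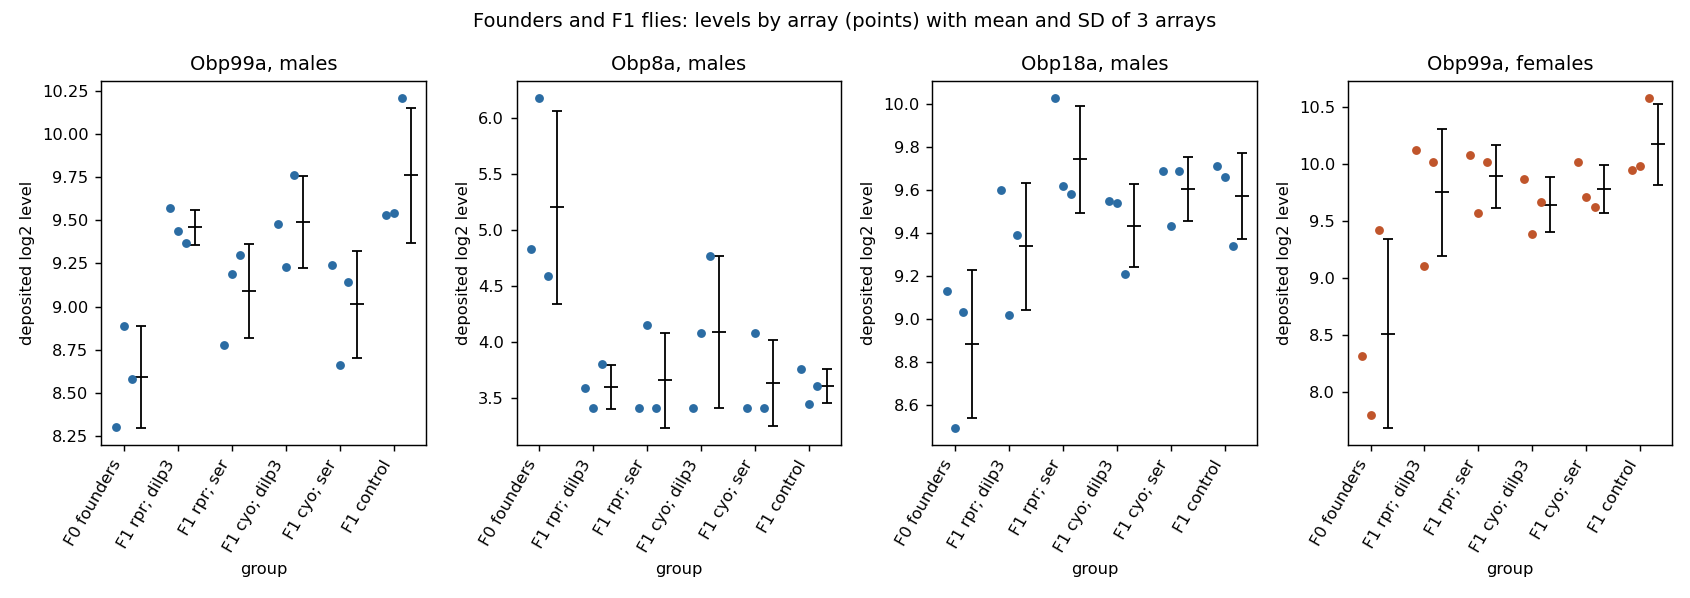
Deposited log2 level of Obp99a, Obp8a and Obp18a in males and of Obp99a in females on each array of the founders, the 4 F1 classes and the F1 control (points), with the mean and SD of 3 arrays beside them. Founder points lie below all control points for Obp99a in both sexes and for Obp18a in males, and above them for Obp8a in males.

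Among the F1 flies, which share 1 control group, the 4 male classes gave 0 called members each by limma against F1 control, where 0.22% (rpr; dilp3), 0.484% (rpr; ser), 0.282% (cyo; dilp3) and 0.396% (cyo; ser) of all entries passed. Members with an unadjusted p under 0.05 numbered 2, 2, 1 and 3 of 30 in that order, where 5.5%, 7.85%, 5.98% and 9.07% of entries had one. The replicate block, which pairs the arrays in the last 3 of these, gave 1 called member in rpr; ser males (Obp56a, higher), where 2.1% of entries passed, and 1 in cyo; ser males (Obp99a, lower), where 4.14% did. Flies with both constructs, in which insulin-producing cells are ablated, had Obp69a as the member of smallest p (0.77 in rpr; dilp3 males; limma adjusted p = 0.653).

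The dilp3 and ser classes of F1 males differed in 2 antennal genes, both of which lie on the third chromosome itself. The construct, the balancer and other sequence differences between these chromosomes therefore cannot be told apart. Of 30 members, Obp69a and Obp83b were higher in the 2 dilp3 classes than in the 2 ser classes, where 0.933% of all entries passed, 0.502% as higher and 0.431% as lower. Obp69a (arm 3L) had 7.40, 6.53 and 7.02 in F1 rpr; dilp3 males and 6.91, 7.25 and 7.44 in F1 cyo; dilp3 males. In the ser classes Obp69a had 6.49, 6.13 and 5.54 in F1 rpr; ser males and 6.22, 5.48 and 6.28 in F1 cyo; ser males. All 6 dilp3 arrays were above all 6 ser arrays, and the mean difference was 1.06 ± 0.21 or 2.09-fold (limma adjusted p = 0.00974). F1 control males had 5.92, 6.09 and 6.75, and founder males, which carry both versions of the third chromosome, had 6.57, 7.18 and 6.84.

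Obp83b (arm 3R) had 9.66, 9.38 and 9.44 in F1 rpr; dilp3 males and 9.19, 9.19 and 9.39 in F1 cyo; dilp3 males. It had 8.64, 9.11 and 8.21 in F1 rpr; ser males and 8.62, 8.92 and 9.04 in F1 cyo; ser males, so the 2 sets did not overlap. The difference was 0.63 ± 0.14 or 1.55-fold (limma adjusted p = 0.0263). F1 control males lay between, at 8.97, 9.05 and 9.17.

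Leaving out 1 array at a time, Obp69a passed in 11 of 12 fits, with a change of 0.88 to 1.19, and Obp83b in 8 of 12, at 0.53 to 0.73. Without F1 rpr; dilp3 male 1 neither passed (adjusted p = 0.0634 for Obp69a and 0.107 for Obp83b). Neither passed when only the F0 and F1 arrays or only the compared groups were fitted. Dup99B, a marker of the ejaculatory duct, was also higher in dilp3 than in ser males (1.14, limma adjusted p = 0.0161), and its part was not tested. In females the same contrast gave 0 of 36 called by limma (2 at an unadjusted p under 0.05, where 7.98% of entries were), where 0.187% of all entries passed, with Obp83b at 1.06 (adjusted p = 0.523), while the replicate block gave 3 (Obp18a, Obp56d and Obp56e, all lower in dilp3 flies), where 15.3% of entries passed.

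**Figure D4:**
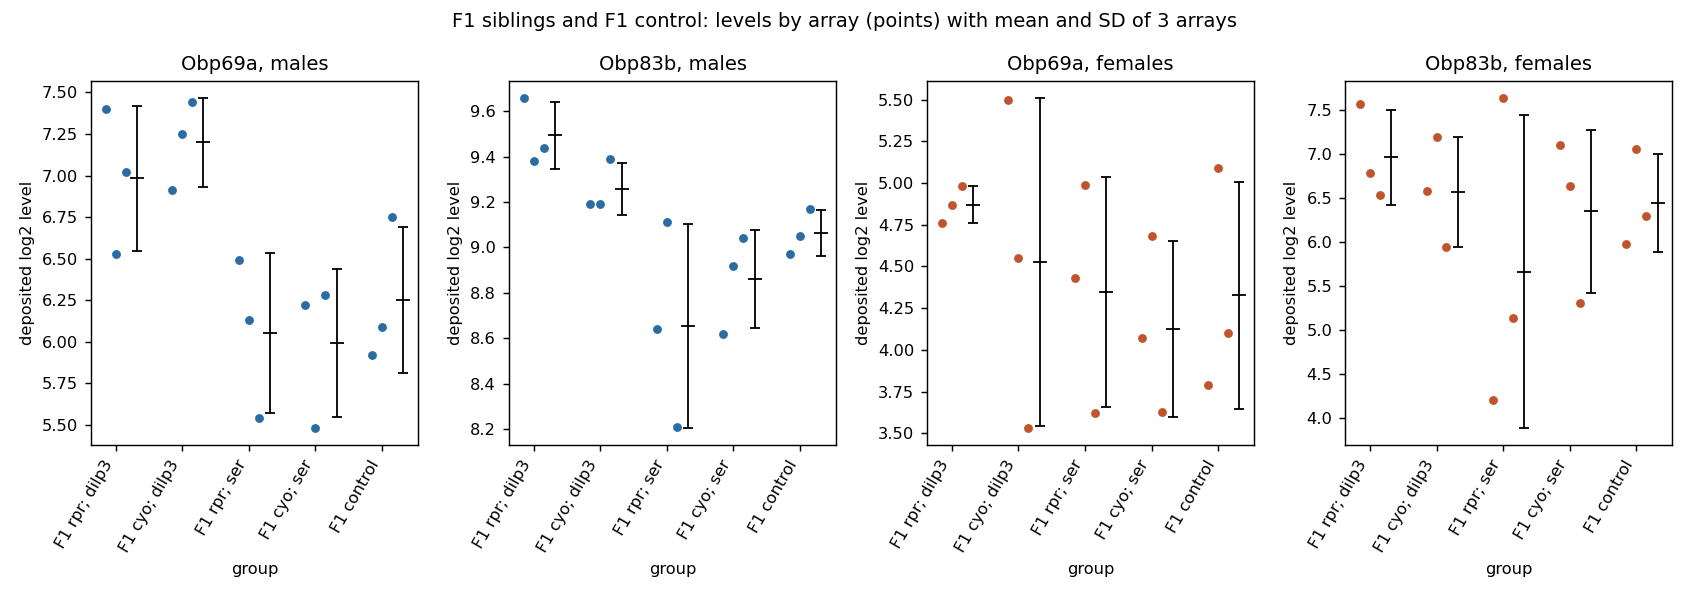
Deposited log2 level of Obp69a and Obp83b on each array of the 4 F1 classes and the F1 control, by sex, with the mean and SD of 3 arrays. In males all dilp3 points lie above all ser points for both genes, and in females the classes overlap.

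The second chromosome (rpr against cyo) gave 0 called members by limma in either sex, where 0.229% of entries passed in males and 0.234% in females, and 1 member in males and 4 in females had an unadjusted p under 0.05, where 7.06% and 8.28% of entries did. The members of smallest p were Obp44a in males (0.50, limma adjusted p = 0.164) and Obp57a in females (0.70, limma adjusted p = 0.323). The replicate block gave 2 in females, Obp56d and Obp99b, both lower in rpr flies, where 0.57% of entries passed. Without F1 cyo; dilp3 male 1, Obp44a passed in males at 0.67 (adjusted p = 0.0184). For the interaction of the 2 chromosomes in males 0 members passed and 0 had an unadjusted p under 0.05, where 0% and 3.45% of entries did, with Obp99b at -1.59 (limma adjusted p = 1).

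F1 females gave calls whose size depended on the batch term. Against F1 control, 4 of 36 members passed in rpr; ser females, where 8.55% of all entries did, and 3 of 36 in cyo; dilp3 females, where 20.4% did. In rpr; ser females 1 was higher and 3 were lower (3.82% and 4.73% of entries), and in cyo; dilp3 females 1 was higher and 2 were lower (11.7% and 8.74%). In rpr; dilp3 and cyo; ser females 0 passed by limma (2 and 1 at an unadjusted p under 0.05, where 4.52% and 6.78% of entries were), where 0.117% and 0.18% of entries did, and the smallest p there belonged to Obp57a (0.69, limma adjusted p = 1) and Obp58c (0.47, limma adjusted p = 0.698). The arrays of the 2 classes with calls were labelled batch 3, 4 and 3, and those of the control batch 1, 1 and 2, so class and batch could be compared only through arrays of other groups. Among these were the F2 female arrays numbered 2, low in ovary markers, which were labelled batch 3. All other F2 and F3 female arrays were labelled batch 1 or 2. The part of these arrays in the fitted changes was not tested, and counts without them are given below. The labels do not say what a batch is, or whether a batch number stands for the same batch among the F0 and F1 arrays as among the F2 and F3 arrays, which this fit assumes.

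The fitted changes were far from the differences of the group means. Obp99b had 3.70, 8.73 and 5.52 in F1 rpr; ser females, against 7.73, 10.63 and 6.68 in F1 control females, a mean difference of -2.36 and a fitted change of -5.70 ± 1.37 (limma adjusted p = 0.0176). Obp83b had 4.20, 7.64 and 5.14, against 5.98, 7.06 and 6.29 in the control, a mean difference of -0.78 and a fitted change of -3.05 ± 0.78 (limma adjusted p = 0.0231). Obp28a had 4.30, 5.57 and 2.91, against 3.74, 4.62 and 4.57 in the control, a mean difference of -0.05 and a fitted change of -2.80 ± 0.80 (limma adjusted p = 0.0365). The arrays of the 2 classes overlapped for all 3 genes.

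Obp19c had 7.60, 3.64 and 8.58 in F1 rpr; ser females and 7.99, 5.46 and 7.42 in F1 cyo; dilp3 females, against 6.54, 2.98 and 7.97 in F1 control females. Array 2 was the lowest of each group, as with the ovary markers above. The fitted changes of 5.54 ± 1.44 (limma adjusted p = 0.0244) and 5.89 ± 1.44 (limma adjusted p = 0.0103) compare with mean differences of 0.77 and 1.12. In cyo; dilp3 females Obp28a had a fitted change of -2.65 ± 0.80 (limma adjusted p = 0.0257) at a mean difference of 0.10. Obp57a had 9.22, 10.53 and 9.04 in F1 cyo; dilp3 females, against 9.58, 10.85 and 9.21 in the control (-1.57 ± 0.40 fitted, limma adjusted p = 0.0119; mean difference -0.28).

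The interaction of the 2 chromosomes in females called 11 of 36 members (9 positive and 2 negative), where 31.1% of all entries passed (15.7% positive and 15.3% negative). The 6 of smallest p were Obp57a, Obp28a, Obp83b, Obp57b, Obp19c and Obp18a, with fitted values of 3.11, 5.98, 5.19, 3.94, -8.09 and 3.05 against 0.54, 1.33, 1.08, 1.02, 0.29 and -0.25 from the group means. Without the batch term 0 members passed in rpr; ser, in cyo; dilp3 or in the interaction. With the replicate block 1 passed in rpr; ser (Obp18a, higher), where 4.36% of entries did, 0 in cyo; dilp3 (0.664%), 1 in cyo; ser (Obp18a, higher; 4.93%) and 0 in the interaction (0.32%). Without the F2 arrays numbered 2 the counts were 1 for rpr; ser, 1 for cyo; dilp3 and 2 for the interaction, where 0.609%, 1.76% and 5.21% of entries passed. The gene was Obp56b (lower, with its median at the floor) in both classes, and Obp56b and Obp57a (positive) in the interaction. Of the members called in these 2 classes with all arrays, none passed in its class without them. Markers of other cell types also had large fitted changes: in rpr; ser females the ovary marker Cp16 was at 7.92 (limma adjusted p = 0.0104), the fat body marker NLaz at -2.15 (limma adjusted p = 0.0124) and the glia marker moody at -2.05 (limma adjusted p = 0.0414). In cyo; dilp3 females Cp16 was at 10.06 (limma adjusted p = 0.00121), NLaz at -1.79 (limma adjusted p = 0.014) and moody at -1.90 (limma adjusted p = 0.0326). Called fat body markers went both ways: in rpr; ser females Yp3 was at 1.56 (limma adjusted p = 0.0248) and Yp2 at 1.97 (limma adjusted p = 0.04). In cyo; dilp3 females Yp3 was at 1.96 (limma adjusted p = 0.0046) and Yp2 at 2.07 (limma adjusted p = 0.0188). Their part in the Obp values was not tested.

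The F2 and F3 test flies carry neither construct nor balancer, and the comparison asks whether their Obp levels differed from those of the control lineage. In all 4 comparisons 0 members passed limma's test, where 0% of all entries did, and 0 members had an unadjusted p under 0.05. Over all entries the share was 0.156% in F2 females, 0.211% in F3 females, 0.854% in F2 males and 0.475% in F3 males. Shares so far under the 0.05 threshold show that this fit, which leaves out the array numbers, was conservative here. Its 0 calls therefore do not exclude a lineage difference. The largest mean difference of any tested member, without regard to sign, was 0.78 in F2 females, 0.63 in F2 males, 0.51 in F3 females and 0.59 in F3 males.

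The members of smallest p had arrays that overlapped between lineages. Obp99a had 10.05, 9.59 and 10.26 in F2 test females, against 9.89, 7.37 and 10.29 in F2 control females. The change of 0.78 ± 0.38 (95% interval -0.01 to 1.57) rested on the low control array 2, and was 0.06 without the arrays numbered 2. Obp99a is the gene that fell in founder males; in F2 males its change was -0.14 (95% interval -0.50 to 0.22) and in F3 males -0.12 (95% interval -0.48 to 0.24).

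Obp56h, which affects male mating behaviour, had 4.54, 2.26, 5.08 and 4.47 in F2 test males, against 3.51, 2.28, 4.26 and 3.79 in F2 control males (0.63 ± 0.55). In the next generation Obp56h had 4.77, 4.76, 3.14 and 4.09 in F3 test males, against 4.41, 2.83, 2.60 and 4.57 in F3 control males (0.59 ± 0.55; 95% interval -0.54 to 1.72). The spread within a group exceeded the difference in both generations. That spread includes differences between array numbers, and same-numbered arrays deviated together (correlations 0.3 to 0.89 in F2 males and 0.34 to 0.49 in F3 males). It therefore does not measure the lineage difference within pairs. With the replicate number as a block 0 members passed limma's test in F2 or F3 of either sex, where 0% of entries did. In F3 females the smallest p was that of Obp99c, at -0.30 ± 0.35. Within single batches the changes were 0.06 for Obp99a in F2 females (batch 1), 0.85 for Obp56h in F2 males (batch 2), 0.45 for Obp56h in F3 males (batch 2), and -0.46 (batch 1) and -0.14 (batch 2) for Obp99c in F3 females. For the founders and the F1 classes against F1 control no batch held 2 arrays of each group, so none could be fitted within a batch.

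Test and control arrays with the same number were close to each other. Over the tested members, the median difference within a numbered pair, without regard to sign, was 0.10 in F2 females, 0.23 in F2 males, 0.17 in F3 females and 0.19 in F3 males. The median range between numbers was 1.54, 1.18, 0.76 and 0.48 in the same order. For 24 of 36, 27 of 30, 22 of 36 and 20 of 30 members the range over numbers exceeded the largest difference within a pair. A range over several numbers tends to be larger than a median difference within a pair, so these medians do not weigh array number against lineage. No such count was made over all entries, and the F2 ranges include the arrays numbered 2.

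The F2 arrays numbered 2, picked after they were seen to stand apart, were set against the other arrays of their sex. No other arrays were counted in this way. In females 15 of 36 tested members were higher on both of these arrays than on all 30 other female arrays, where 17.9% of all entries were, and 1 (Obp19c) was lower, where 11.6% were. Obp83g (arm 3R) had 9.11 on the test and 9.35 on the control array, against 2.36 to 3.92 on the other female arrays. Its neighbours were high as well: Obp83ef had 5.09 on the test and 4.61 on the control array, against 2.99 or less elsewhere, and Obp83cd had 5.96 on the test and 6.31 on the control array, against 5.30 or less.

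The glial, fat body and antennal members named under the sex comparison were also high on these female arrays. Obp44a had 12.99 on the test and 13.01 on the control array, against 5.44 to 10.09 on the others. Obp99b had between 12.85 and 13.16, against 3.70 to 10.63. Obp28a had between 9.05 and 9.14, against 2.91 to 5.61, and Obp83b between 9.31 and 9.39, against 4.20 to 7.64. Fat body markers averaged 11.95 in the test and 11.30 in the control array, against 8.79 to 11.45 on the other 30, so the control array lay within that range. Markers of glia, eye and antenna were above all other female arrays: glia markers averaged 8.63 in the test and 8.72 in the control array, against 5.61 to 7.11. Eye markers averaged 9.15 in the test and 9.20 in the control array, against 4.39 to 8.50, and antennal markers 3.69 and 3.71, against 2.88 to 3.36. Accessory gland markers stayed low at 2.57 and 2.79. The part of these markers in the Obp values, and in the sex difference of the glial and antennal members, was not tested.

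In males 5 of 30 members were higher on both F2 arrays numbered 2 than on the other 32 male arrays, where 8.65% of entries were, and 3 were lower, where 5.71% were. Obp83g had 8.26 on the test and 8.74 on the control array, against 2.36 to 6.24 on the others, and Obp83cd had 4.99 on the test and 4.63 on the control array, against 2.90 or less. Obp28a, Obp99b and Obp99c were the other 3. Obp51a was lower, at 11.36 on the test and 11.07 on the control array, as were Obp56a (5.79 and 4.89) and Obp8a (2.70 and 3.01). The 2 arrays of each sex are 1 test and 1 control sample, so this profile did not separate the lineages.

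**Figure D5:**
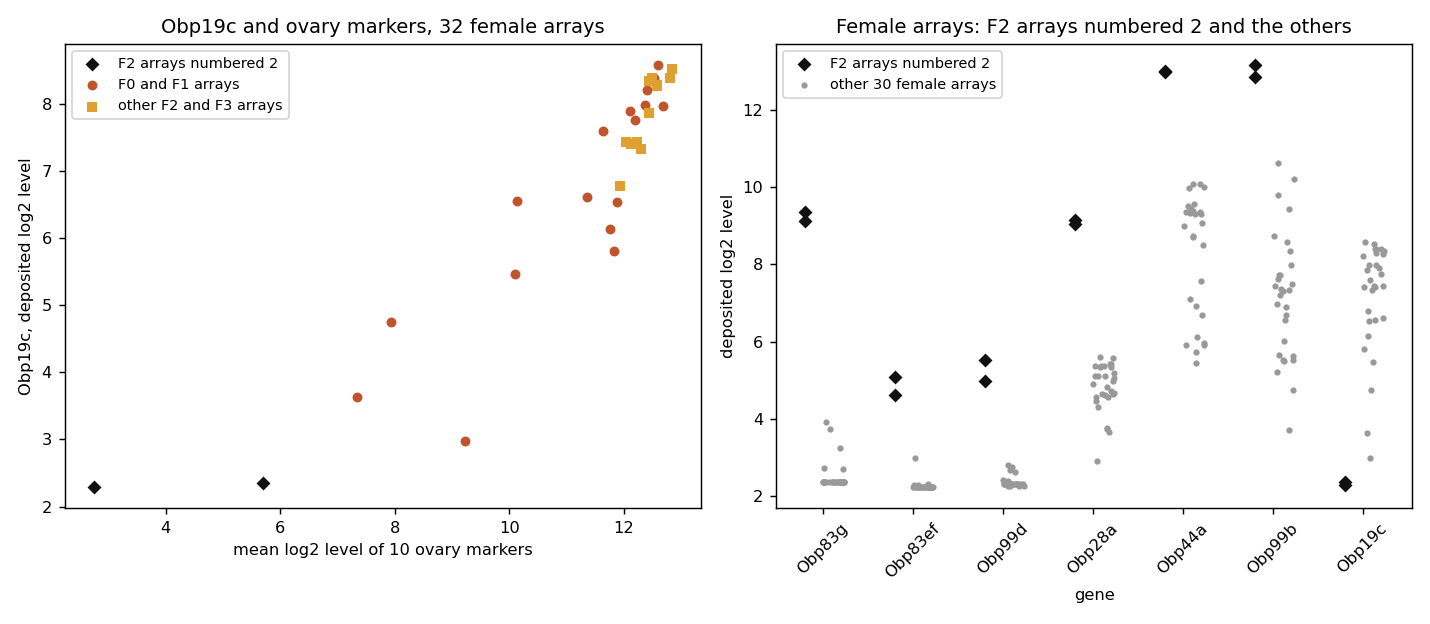
Left, deposited log2 level of Obp19c against the mean log2 level of 10 ovary markers, 1 point per female array; right, deposited log2 level of 7 Obp genes on the F2 arrays numbered 2 (diamonds) and on the other 30 female arrays (dots). The F2 arrays numbered 2 have the lowest Obp19c values, at 2.35 in test and 2.29 in control females, and the highest Obp83g values, at 9.11 in test and 9.35 in control females.

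Control flies of different generations are compared by their levels, since generation cannot be told apart from the array set in which it was run, and no test was made. In males 2 of 30 members were higher on all 8 F2 and F3 control arrays than on all 3 F1 control arrays, where 7.99% of entries were, and 0 were lower, where 5.55% were. Obp56e had a lowest, median and highest level of 6.43, 7.13 and 9.58 in F2 and F3 control males, against 5.25, 5.27 and 6.41 in F1 control males. The other was Obp83cd, near the floor in both. In females 1 of 36 members (Obp28a) was higher on all 7 later arrays, where 4.54% of entries were. Obp22a was lower, where 3.77% were, at 2.23, 2.57 and 3.00 in F2 and F3 control females, against 3.18, 3.48 and 3.51 in F1 control females. Larger mean differences were seen where arrays overlapped. Obp19b had 4.95, 6.86 and 7.37 in F2 and F3 control males, against 3.23, 3.44 and 6.92 in F1 control males, a mean difference of 2.03. Obp44a had 8.98, 9.36 and 13.01 in F2 and F3 control females, against 5.91, 9.38 and 9.56 in F1 control females (1.64), with its highest value on the F2 array numbered 2.

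Other genes of smell and taste give a frame for the sex result, in which 36.2% of all tested entries were higher and 44% lower in males. Of 11 tested genes of sensillum lymph and support cells, 10 were higher in males and 1 was lower by limma, including Os-C (1.86), Ugt35B1 (1.62) and lush (1.04), the pheromone-binding member of the Obp family that the naming rule leaves out. Of 8 CheA and CheB genes, which encode secreted proteins of taste sensilla, 7 were higher in males, among them CheA7a (1.87), CheA87a (1.81) and CheB93a (1.22). Receptors were mostly below the filter, and few of those tested passed in either direction: 0 of 10 tested odorant receptors were higher and 3 lower, 0 of 16 ionotropic receptors were higher and 4 lower, and 2 of 17 gustatory receptors were higher and 4 lower. The lower ones of smallest p were Or43b (-0.28), Or43a (-0.10) and Or94b (-0.07) among odorant receptors, and Ir7c (-1.16), Ir25a (-0.19) and Ir41a (-0.13) among ionotropic receptors. Gr98b (-0.37) and Gr94a (-0.47) were lower and Gr32a (0.24) higher. Within the F1 control alone, Gr98b (-1.36), Gr33a (-0.65), Or43a (-0.34), Ir7a (-0.33) and Or35a (-0.28) were lower in males, and Gr36a (0.63), Os-C (2.5), Ugt35B1 (1.71) and Snmp1 (1.55) higher. In the founders the gustatory receptor Gr59a rose by 1.45 in males (limma adjusted p = 0.00348) and by 1.10 in females (limma adjusted p = 1.6e-06), and Ir76a rose by 0.86 in males (limma adjusted p = 0.0316). In the F1 females, in the fit with the batch term, a10 (-3.21, limma adjusted p = 0.0204) and Ugt301D1 (-1.82, limma adjusted p = 0.0253) were lower in rpr; ser flies. There lush (-1.52, limma adjusted p = 0.00787), Ugt301D1 (-1.80, limma adjusted p = 0.0144) and Phk-3 (-2.59, limma adjusted p = 0.041) were lower in cyo; dilp3 flies, and a10 (4.84, limma adjusted p = 0.00815), lush (1.97, limma adjusted p = 0.0112) and Snmp1 (2.36, limma adjusted p = 0.0203) had positive interactions. In F2 and F3 flies 0 genes of these lists passed, where 0% of all entries did.

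Probe sets outside the naming rule are given as levels only. The lush probe set had a lowest, median and highest level of 4.33, 5.15 and 5.81 in males, against 3.32, 4.04 and 5.49 in females. A probe set shared by Obp50b and Obp50c had 3.11, 5.30 and 6.09 in males, against 2.30, 2.38 and 3.10 in females, while Obp50a, Obp50d and Obp50e stayed near the floor. The 2 sexes did not overlap on it, by a margin of less than the spread within either sex, and the probe set does not say which of the pair of genes it reports. A second probe set for the same pair had 2.26, 2.54 and 4.20 in males, against 2.23, 2.27 and 3.16 in females. A probe set shared by Obp57d and Cpr57A, a cuticle protein gene, had 6.30, 7.61 and 8.83 in males, against 5.04, 6.17 and 9.20 in females, and these ranges overlapped.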

How the data were processed

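Whole-fly total RNA was hybridised to Affymetrix Drosophila arrays. The authors deposited 1 table of log2 values, made by GCRMA with limma 3.46.0 named in the submitters' processing notes; whether all arrays were normalised together is not given in the sources used here. Of 18952 probe sets, 183 controls were left out, 13647 had 1 gene symbol, 402 several and 4720 none; all 47 members were found in the RefSeq gene table. The number of arrays limits the precision.

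Each gene's probe set of highest mean was fitted with limma 3.58.1 (R 4.3.3; lmFit, contrasts.fit, eBayes), with group and labelled batch (4 levels, whose meaning the labels do not give) as terms, over all arrays of a sex (12809 entries in females, 11357 in males) or of both sexes (13281), and calls were made at 0.05 after Benjamini-Hochberg adjustment over every entry tested. The fit was run on simulated data of the same layout with independent noise, for the founder, F3 and sex comparisons only. That simulation held no differences between batches or array numbers, so it says nothing about fits where these matter, such as those of the F1 females. The founders and all F1 classes share the F1 control arrays. Levels of Obp genes are compared within a gene only.

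Same-numbered arrays deviated together, with every correlation above 0.1, in all female comparisons, in rpr; ser, cyo; dilp3, cyo; ser and rpr against cyo males, in F2 and F3 of both sexes and between the sexes in F1 control (0.11 to 0.97), so the pairing comes from the data and the block is given where it changed a call. The text names every Obp gene called in a comparison (up to 6 by smallest p), the member of smallest p where none was called, 6 genes for each direction of sex, and up to 3 called genes for each other list of smell and taste genes; further members are given by their levels. The members and lists were chosen with earlier results of these data known. Alternatives tried were other filters, no batch term, the replicate block, fewer groups, probe set choice, leaving out each array and, chosen after seeing the data, separate batch numbers for the 2 array sets and leaving out the arrays that stood apart.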

Additional observations from a re-analysis of the deposited data

Results flagged for a closer look

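Of 138 sets of 4 arrays (F2 males and F3 of both sexes) checked for a sample far from the rest, 16 held one, and chance alone gives about 1 in 20, or 6.9. The sets share arrays, and some flags come from values tied at a gene's lowest level, so 16 against 6.9 cannot show an excess. On F2 test male 2, Obp51a was 11.36, below the other 3 arrays, which reached 12.25, Obp83cd was 4.99 against 2.30 to 2.52, Obp8a was 2.70 against 4.12 to 4.33, and Obp99c was 13.91 against 13.10 to 13.15. On F2 control male 2, Obp8a was 3.01 against 3.63 to 3.74. These are the male arrays numbered 2 whose Obp profile is described above. On F2 control male 3, Obp19c was 4.90 against 2.23 to 2.35, on the array with ovary markers at 10.26; Obp85a there was 2.23, at the floor as on the others. On F3 test male 2, Obp99c was 12.80 against 13.12 to 13.15.

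Among F3 control females, Obp28a on array 3 was 5.33 against 4.65 to 4.72, Obp8a on array 3 was 3.30 against 2.94 to 2.95, Obp44a on array 4 was 8.98 against 9.35 to 9.39, and Obp56g on array 4 was 5.22 against 6.29 to 6.42. Near the floor, Obp56b was 2.33 and Obp85a 2.30 on 1 F3 control female array each, and Obp56f was 2.68 and Obp85a 2.32 on F3 test female 2.

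In the fit with the batch term, the interaction of the rpr and dilp3 chromosomes in females passed for the 6 named members, at 3.11 (Obp57a), 5.98 (Obp28a), 5.19 (Obp83b), 3.94 (Obp57b), -8.09 (Obp19c) and 3.05 (Obp18a). None passed without the batch term or with the replicate block, which pairs these arrays, and with the block Obp57a (-0.35), Obp57b (-0.22), Obp19c (2.72) and Obp18a (-3.01) had the opposite sign.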

How the results depend on the processing

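The number of called members stayed within 1.5 times in 217 of 253 alternatives, and for 12 of 23 comparisons in all of theirs, F2 and F3 in both sexes among them. Fitting the compared groups only, or the F0 and F1 arrays only, gave 0 for founder males, 0 for dilp3 against ser males, and 0 for rpr; ser females, cyo; dilp3 females and the female interaction. No batch term gave 0, 0 and 0 for these last 3. With the replicate block, founder females gave 1, rpr; ser females 1, cyo; dilp3 females 0, cyo; ser females 1, rpr against cyo females 2, dilp3 against ser females 3, the female interaction 0, rpr; ser males 1 and cyo; ser males 1; it moved no other call count of paired arrays by over 1.5 times. Founder males gave 5 under the block, where 8.85% of entries passed. Their numbers (correlations -0.07 to 0.54), like those of dilp3 against ser males (0.06 to 0.42), did not pair. The F0 and F1 arrays with the block gave 1 for founder males, 0 for dilp3 against ser males, and 0, 0 and 0 for rpr; ser females, cyo; dilp3 females and the female interaction. Separate batch numbers, and equally leaving out the F2 arrays numbered 2, gave 1 for founder females, 1 for rpr; ser females, 1 for cyo; dilp3 females and 2 for the female interaction.

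Leaving out 1 array gave 0 to 1 in founder females (1, Obp58c, without founder female 3), 1 to 4 in founder males, 0 to 5 in rpr; ser females (0 without control female 2), 1 to 6 in cyo; dilp3 females, 6 to 13 in the female interaction, 0 to 1 in rpr against cyo males, 0 to 2 in dilp3 against ser males and 9 to 15 between the sexes in F1 control.

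Of single genes, 20 of 527 alternatives reversed a sign, all in F1 females. With the block (all arrays, or F0 and F1 arrays) Obp19c was -0.76 in rpr; ser and -0.40 in cyo; dilp3 and Obp57a 0.18 in cyo; dilp3, and the interactions were -0.35 (Obp57a), -0.22 (Obp57b), 2.72 (Obp19c) and -3.01 (Obp18a). Without the batch term, or with the compared groups only, Obp28a was 0.10 in cyo; dilp3, and the interactions were 0.29 (Obp19c) and -0.25 (Obp18a). The cause was not tested.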
